A study of Mus musculus with 18 samples.

Results

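Expression of 10 genes of the axonal and dendritic cytoskeleton was described in astroglial, microglial and neuronal fractions of brains from wild-type (WT) and *Atxn2*-CAG100-KIN mice (KIN). The genes were the 4 neurofilament genes *Nefl*, *Nefm*, *Nefh* and *Ina*, the 4 genes of microtubule-associated proteins *Mapt*, *Map1a*, *Map1b* and *Map2*, the growth cone gene *Gap43* and the axonal kinesin gene *Kif5a*. They were chosen by name with earlier results of these data known, and the counts of all their transcripts were summed. All 10 names were found among 35960 genes. Together they held 57 transcripts, of which 26 had at least 5 counts in at least 2 of the 18 libraries. Over all libraries the 10 genes had 3829 counts, from 54 for *Gap43* and 68 for *Ina* to 778 for *Mapt* and 1034 for *Map1a*.

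Neurofilaments are intermediate filaments that fill large axons and set their calibre; the light chain (*Nefl*), the medium and heavy chains (*Nefm*, *Nefh*) and alpha-internexin (*Ina*) assemble together. Microtubules are the tracks of axonal transport, and the proteins of *Mapt* (tau), *Map1a*, *Map1b* and *Map2* bind and stabilise them, tau mainly in axons, MAP2 mainly in dendrites, MAP1B early in axon growth and MAP1A in mature neurons. GAP43 is a protein of growth cones and presynaptic terminals, and KIF5A is a neuronal heavy chain of kinesin-1 that carries cargo, neurofilaments among them, along axons. Tau is also made by oligodendrocytes, and mRNA of several of these genes is transported into neurites.

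The KIN mice carry the CAG expansion in *Atxn2* in the homozygous state on a C57BL/6 background. They were compared with WT littermates of the same sex from matings of heterozygous mice at the age of 10 months. Both male and female pairs were sequenced, more of them male. Neither sex nor the littermate pairs were terms in the main fits. Whole brains were dissociated with enzymes, and microglia were taken with beads against CD11b, then astrocytes with beads against ACSA-2, while neurons were what remained after depletion of non-neuronal cells. Each fraction and genotype had 3 libraries, labelled as biological replicates 1 to 3; p-values measure the spread between these libraries. The fractions were taken in sequence from 1 brain each, so that libraries of different fractions share mice, and the tests across fractions treated the 18 libraries as independent. Fewer cells of a type and less RNA per cell cannot be told apart in such bulk fractions.

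Total counts per library were 2118317 to 2829969 in astrocytes, 2334633 to 3296398 in microglia and 761481 to 2017932 in neurons. The 10 most abundant transcripts took 75.8 to 81.1%, 76.8 to 84.6% and 79.9 to 85.4% of them. This left 469298 to 649157, 458395 to 638266 and 110842 to 303500 counts for all other transcripts, so that many members rested on few counts. In neurons depth differed by genotype, with 761481 to 1017972 total counts in WT and 1473194 to 2017932 in KIN. Outside the 10 most abundant transcripts these were 110842 to 204586 in WT and 230330 to 303500 in KIN. *Atxn2* had 3 to 41 counts per library and overlapped between genotypes in each fraction (10.9 ± 0.496 CPM in WT and 9.22 ± 1.74 CPM in KIN astrocytes, SD, n = 3); the knock-in changes a repeat and its level is no check of the labels. Fraction markers separated the fractions in part. *Aif1* was at 33.2 to 42.1 CPM in microglia and 0 in all neuronal libraries, *Aqp4* was at 19.3 to 48.8 CPM in astrocytes and 0 in all neuronal libraries, and *Tubb3* was at 64.7 to 110.0 CPM in neurons against 5.53 to 21.1 CPM in astrocytes. Some other neuron markers did not follow the label: *Snap25* reached only 6.45 CPM in neurons but 7.48 to 23.7 CPM in WT astrocytes, and *Rbfox3* only 5.42 CPM against 3.25 to 15.7 CPM. In KIN astrocytes they were at 2.59 to 3.58 CPM and at 0 to 3.17 CPM. All 19 listed neuron markers summed to 208 to 278 CPM in neurons, 170 to 311 CPM in WT astrocytes and 120 to 130 CPM in KIN astrocytes. A single library, neurons WT replicate 2, stood apart with 277 CPM of summed oligodendrocyte markers (28.2 to 49.8 CPM in the other neuronal libraries), 67.7 CPM of astrocyte markers (9.73 to 19.0 CPM) and the highest levels of *Nefh* and *Kif5a* anywhere. The main comparisons that use neurons are also given without it.

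*Nefm* and *Nefl* are neighbours on chromosome 14, *Nefm* at chr14:68320039-68362305 on the minus strand and *Nefl* at chr14:68321268-68326544 on the plus strand (build GRCm39, as are all positions here). The last exon of the transcript *Nefm-202* overlaps the exon of *Nefl-201* by 1152 bases on the opposite strand. Counting did not use strand, so that reads in this stretch cannot be assigned to either gene. *Nefm* is therefore also given by *Nefm-201* alone, while *Nefl* has no transcript free of this stretch among those that passed the count minimum. *Nefh* lies at chr11:4888740-4898130 (minus) and *Ina* at chr19:47003069-47013770 (plus). The heavy chain differs from its partners by its tail, a long series of Lys-Ser-Pro triplets that are phosphorylated in axons. In the coding sequences, *Nefh* (1090 codons) had 51 such triplets, *Nefm* (848 codons) had 4, and *Nefl* (543 codons) and *Ina* (501 codons) had 0. A stretch of 171 bases in exon 4 of 4 of *Nefh*, chr11:4890884-4891054 read on the minus strand (codons 522 to 578), is shown because it holds 10 of these triplets, in capitals, between short linkers:
Nefh tail repeat: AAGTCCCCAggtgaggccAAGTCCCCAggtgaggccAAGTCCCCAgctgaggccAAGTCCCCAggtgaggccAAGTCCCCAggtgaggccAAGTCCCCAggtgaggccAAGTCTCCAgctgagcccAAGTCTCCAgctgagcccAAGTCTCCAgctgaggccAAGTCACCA

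Tau is made in several forms from *Mapt*, chr11:104122024-104222946 on the plus strand. The forms differ, among other parts, by small exons near the start and by a large exon in the middle. The following exons are shown because they tell apart the transcripts that are counted below. The first 2 are the small exons near the start, which the most abundant transcript *Mapt-204* lacks; the third was only in *Mapt-205*:
exon 3 of 12 of Mapt-201, chr11:104177949-104178035, 87 bases: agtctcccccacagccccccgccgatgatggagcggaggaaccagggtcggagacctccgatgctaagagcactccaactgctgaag
exon 4 of 12 of Mapt-201, chr11:104180734-104180820, 87 bases: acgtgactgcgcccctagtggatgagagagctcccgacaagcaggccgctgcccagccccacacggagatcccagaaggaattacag
exon 6 of 11 of Mapt-205, chr11:104198707-104198760, 54 bases: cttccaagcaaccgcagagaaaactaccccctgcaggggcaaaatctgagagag

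The other members lie at chr2:121120071-121141313 (*Map1a*, plus), chr13:99557954-99653137 (*Map1b*, minus), chr1:66214327-66481746 (*Map2*, plus), chr16:42068805-42161086 (*Gap43*, minus) and chr10:127060993-127103180 (*Kif5a*, minus). The longest run of bases that 2 different members shared on the same strand had 26 bases, in *Map1a* and *Map1b*.

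The first comparison asked how the KIN genotype altered these genes in astrocytes. All 4 neurofilament genes, *Map1b*, *Gap43* and *Kif5a* fell in the KIN astroglial fraction, while *Mapt*, *Map1a* and *Map2* did not pass the test. Levels are given as CPM, counts scaled by the library size after TMM adjustment, and are compared only within a gene. A change was called in the quasi-likelihood test of edgeR at an adjusted p (Benjamini-Hochberg, over all genes of the fit) of at most 0.05 with a log2FC of at least 1 in size. By this rule 7 of the 10 members were called lower and 0 higher, against 6.42% of all tested genes called lower and 2.43% called higher. An unadjusted p of at most 0.05 was reached by 8 members, all lower, against 14.5% of all genes lower and 10.4% higher. The median log2FC of the members was −2.07, and that of all genes was −0.004.

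The neurofilament genes fell together. *Nefl* was at 6.71, 0.65 and 5.64 CPM in WT replicates 1, 2 and 3, and at 1.44, 1.02 and 0.383 CPM in KIN. WT replicate 2 was as low as the KIN libraries, and the groups overlapped. The log2FC of *Nefl* was −2.09 (SE 0.58, edgeR adjusted p = 0.0115).
*Nefm* was at 15.5, 3.58 and 11.3 CPM in WT and at 1.44, 0.512 and 1.92 CPM in KIN. Every KIN library was below every WT library, and the pooled KIN level was 13.7% of WT. The log2FC was −2.86 (SE 0.45, edgeR adjusted p = 1.42e-05), and for *Nefm-201* alone, a choice made after seeing the data, it was −2.49 (SE 0.51, adjusted p = 0.000187; range over the alternatives of *Nefm* 2.36e-12 to 0.00208).
*Nefh* was at 6.71, 1.63 and 5.02 CPM in WT and at 0.864, 1.02 and 0 CPM in KIN, again without overlap. The heavy chain fell by 2.76 on the log2 scale (SE 0.61, edgeR adjusted p = 0.00143).
*Ina* was at 3.18, 2.28 and 4.08 CPM in WT and at 0.864, 0 and 0 CPM in KIN, 29 counts against 3. The ratio of pooled WT to KIN levels, that is counts scaled by library size, was 8.54 (exact 95% interval 2.65 to 43.8, counting error only). The edgeR adjusted p was 0.00379 in a fit that gave log2FC −2.98 (SE 0.73). KIN replicate 1 held all 3 KIN counts; without it the call held and the fitted value was −6.14, which then depends on the prior count.

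Among the microtubule-associated proteins, *Map1b* fell and the other 3 did not pass the test. *Map1b* was at 45.6, 15.0 and 33.2 CPM in WT and at 8.93, 8.7 and 8.44 CPM in KIN. The KIN libraries were close to each other, 8.69 ± 0.247 CPM (SD, n = 3), and lay below every WT library. The log2FC was −1.85 (SE 0.28, edgeR adjusted p = 6.12e-06).
*Mapt* was at 35.7, 36.1 and 35.4 CPM in WT and at 42.6, 34.3 and 40.6 CPM in KIN. The WT libraries were nearly equal, 35.7 ± 0.331 CPM (SD, n = 3), and the KIN libraries, at 39.2 ± 4.36 CPM, lay on both sides of them. The log2FC was 0.13 (SE 0.21, edgeR adjusted p = 0.772), and the ratio of pooled WT to KIN levels of 0.894 had an exact 95% interval of 0.764 to 1.05.
*Map1a* was at 71.7, 34.5 and 58.6 CPM in WT and at 37.7, 37.9 and 33.0 CPM in KIN. WT replicate 2 was among the KIN values, and the log2FC of −0.61 (SE 0.22) had an edgeR adjusted p of 0.0619.
*Map2* was at 21.2, 13.3 and 15.4 CPM in WT and at 12.7, 10.7 and 19.2 CPM in KIN, with overlapping groups. Its log2FC was −0.23 (SE 0.25, edgeR adjusted p = 0.634).

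The growth cone gene and the kinesin gene fell as well. *Gap43* was at 3.89, 1.63 and 1.88 CPM in WT and at 0.288, 0 and 0.767 CPM in KIN, 22 counts against 3. The groups did not overlap, and the ratio of pooled WT to KIN levels was 6.48 (exact 95% interval 1.95 to 33.8), with an edgeR adjusted p of 0.0262. The fitted log2FC of −2.58 became −3.46 without KIN replicate 3, which held 2 of the 3 KIN counts.
*Kif5a* was at 18.7, 16.6 and 17.9 CPM in WT and at 3.74, 7.67 and 2.3 CPM in KIN. Its WT libraries were close to each other, 17.7 ± 1.08 CPM (SD, n = 3), and the pooled KIN level was 23.9% of WT. The log2FC was −2.05 (SE 0.3, edgeR adjusted p = 3.7e-06).
For 6 members every KIN library was below every WT library, which held for 14.1% of all tested genes. The calls of *Nefm*, *Nefh*, *Map1b* and *Kif5a* held when each library was left out in turn. That of *Ina* was lost without WT replicate 3. That of *Nefl* was lost without KIN replicate 3, WT replicate 1 or WT replicate 3, and that of *Gap43* without KIN replicate 1, KIN replicate 2, WT replicate 1 or WT replicate 3. Without WT replicate 3 only 4 members were called, and with DESeq2 in place of edgeR these were also 4, *Nefm*, *Nefh*, *Map1b* and *Kif5a*. Of all tested genes, 412 of 11123 were called lower without WT replicate 3 and 292 of 11751 with DESeq2.

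**Figure D1:**
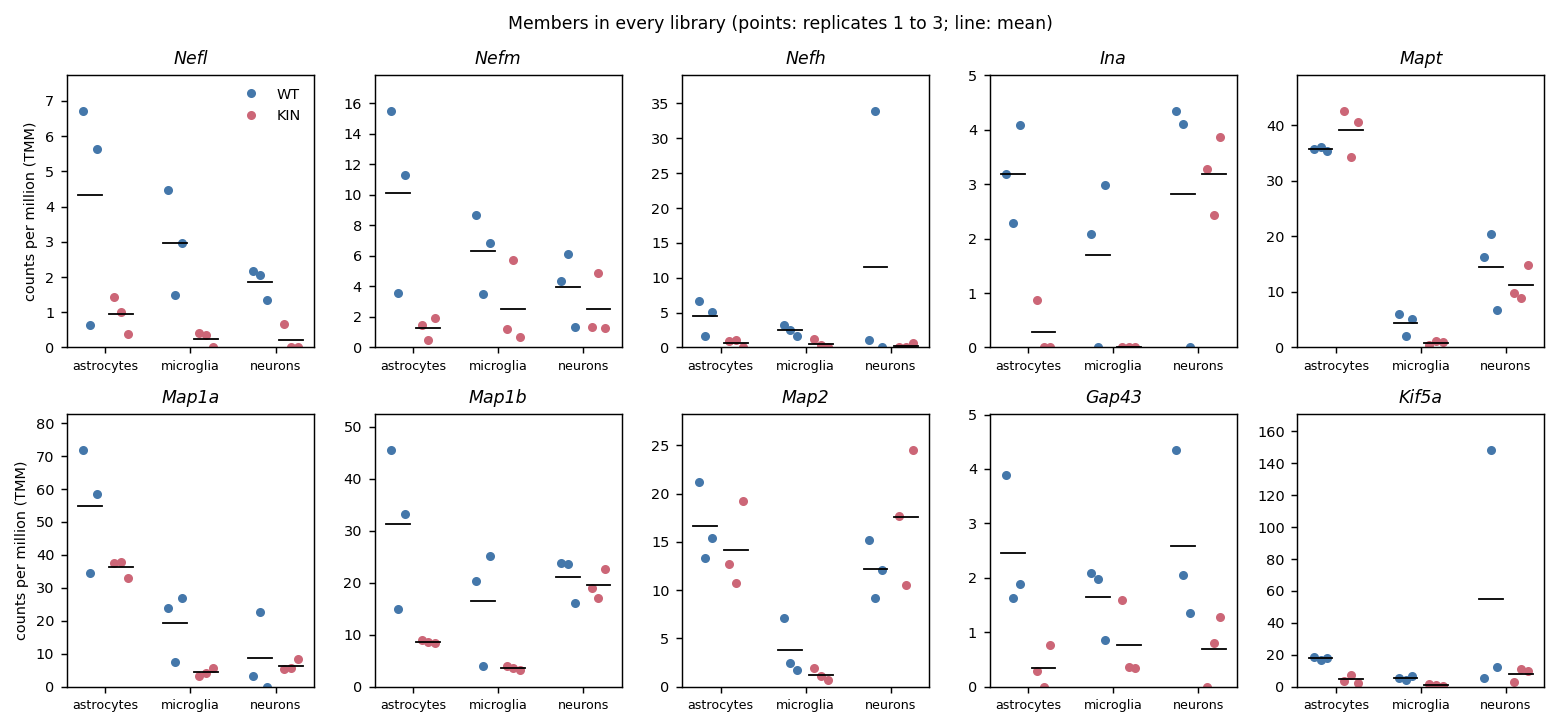
Levels of the 10 genes in every library, in CPM on the vertical axis, by fraction on the horizontal axis; points are replicates 1 to 3 of WT and KIN and lines are means. In astrocytes the KIN points of Map1b (8.44 to 8.93 CPM) and Kif5a (2.3 to 7.67 CPM) lie below all WT points, those of Mapt do not, and in neurons WT replicate 2 stands far above the others for Nefh (33.9 CPM) and Kif5a (148.0 CPM).

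In the microglial fraction the same question gave *Nefl*, *Mapt*, *Map1a*, *Map1b* and *Kif5a* as lower in KIN. These were 5 of the 9 members that could be tested, with 0 higher, against 0.785% of all tested genes called lower and 0.739% called higher. The median log2FC of the tested members was −2.27 and that of all genes −0.006, and all 9 had an unadjusted p of at most 0.05 in the lower direction, which 5.85% of all genes had, while 6.19% had it in the higher direction. *Gap43* was not tested, having under 5 counts in all but 1 library. For 5 of the 9, every KIN library was below every WT library, which held for 7.55% of all tested genes.

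The neurofilament genes were low in this fraction. *Nefl* was at 4.48, 1.49 and 2.98 CPM in WT and at 0.397, 0.359 and 0 CPM in KIN, 25 counts against 2. The groups did not overlap, and the ratio of pooled WT to KIN levels was 13.2 (exact 95% interval 3.3 to 115.0), with an edgeR adjusted p of 0.0282.
*Nefm* was at 8.66, 3.47 and 6.81 CPM in WT and at 1.19, 5.74 and 0.702 CPM in KIN. KIN replicate 2 was at the WT level, and the log2FC of −1.34 (SE 0.48) had an edgeR adjusted p of 0.193. Without that library it was −2.75 and was called (adjusted p = 0.0399), as it was without WT replicate 2 (−1.60, adjusted p = 0.0391). For *Nefm-201* alone it was −0.98 (SE 0.54, adjusted p = 0.535), and over the alternatives of *Nefm* here the adjusted p ran from 0.0391 to 0.768.
*Nefh* was at 3.29, 2.48 and 1.7 CPM in WT and at 1.19, 0.359 and 0 CPM in KIN. The groups did not overlap, but the log2FC of −2.27 (SE 0.79) did not pass the test (edgeR adjusted p = 0.172). It was −3.54 without KIN replicate 1 and −1.69 without KIN replicate 3, without a call in either fit.
*Ina* was at 2.09, 0 and 2.98 CPM in WT and at 0 in all 3 KIN libraries. Against a floor of 3 counts over the group it was at least 4.93-fold lower in KIN, with an edgeR adjusted p of 0.0988. It was called without WT replicate 2 (adjusted p = 0.0106), with no filter on low counts (0.0108) and with all 18 libraries in the fit (0.0188), and over its alternatives the adjusted p ran from 0.0106 to 1.0.

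*Mapt*, which did not differ in astrocytes, fell here. It was at 5.97, 1.98 and 5.11 CPM in WT and at 0.397, 1.08 and 1.05 CPM in KIN. Every KIN library was below every WT library, and the pooled KIN level was 18.4% of WT from 7 against 36 counts. The log2FC was −2.35 (SE 0.56, edgeR adjusted p = 0.0269).
*Map1a* was at 23.9, 7.44 and 26.8 CPM in WT and at 3.18, 4.31 and 5.61 CPM in KIN, without overlap. The log2FC was −2.16 (SE 0.36, edgeR adjusted p = 0.00181).
*Map1b* was at 20.3, 3.97 and 25.1 CPM in WT and at 3.97, 3.59 and 3.16 CPM in KIN. WT replicate 2 was at the KIN level, and the log2FC was −2.24 (SE 0.42, edgeR adjusted p = 0.00572).
*Map2* was at 7.17, 2.48 and 1.7 CPM in WT and at 1.99, 1.08 and 0.702 CPM in KIN. WT replicate 1 was the only library above 2.48 CPM, and the log2FC of −1.71 (SE 0.58) did not pass the test (edgeR adjusted p = 0.155). It was −0.74 (adjusted p = 0.867) without that library, and was called without WT replicate 2 (−1.94, adjusted p = 0.0457).
*Kif5a* was at 5.67, 4.46 and 6.81 CPM in WT and at 1.59, 1.08 and 0.702 CPM in KIN. The groups did not overlap, and the log2FC was −2.31 (SE 0.47, edgeR adjusted p = 0.0096).
*Gap43* was at 2.09, 1.98 and 0.851 CPM in WT and at 1.59, 0.359 and 0.351 CPM in KIN. The ratio of its pooled WT to KIN levels was 2.29, with an exact 95% interval of 0.812 to 7.35 that includes 1.

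Of the microglial calls, only that of *Map1a* held when each library was left out in turn. *Map1b* was lost without KIN replicate 2 or 3, *Kif5a* without KIN replicate 2, KIN replicate 3 or WT replicate 3, and *Nefl* and *Mapt* without each of the KIN libraries. Without WT replicate 1 or WT replicate 3 *Nefl* and *Mapt* fell under the count minimum and were not tested, so that their calls stood in 1 of 4 such fits, the one without WT replicate 2. The number of members called ran from 1 without KIN replicate 3 to 8 without WT replicate 2. Of all tested genes, 13 of 10436 and 226 of 10676 were called lower in these fits, and 29 and 227 higher. DESeq2 without independent filtering, an alternative chosen after seeing the data, called *Map1a* and *Map1b* alone.

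In neurons 0 of the 7 members that could be tested were called, by edgeR or by DESeq2. Of all tested genes, 0.0739% were called lower and 0.0% higher in this fraction. An unadjusted p of at most 0.05 was reached by 1 member, *Kif5a*, in the lower direction, and by 2.38% of all genes in that direction and 2.66% in the other. The median log2FC of the tested members was −0.58 and that of all genes 0.045. Without WT replicate 2, 6 members could be tested, 0 reached an unadjusted p of at most 0.05, and the medians were −0.06 and 0.071. For 0 of the 7 was every KIN library below every WT library, against 2.22% of all tested genes.

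*Map1b* was at 23.9, 23.6 and 16.2 CPM in WT and at 19.0, 17.0 and 22.6 CPM in KIN, a log2FC of −0.31 (SE 0.31, edgeR adjusted p = 0.968). *Map2* was at 15.2, 9.23 and 12.1 CPM in WT and at 17.7, 10.5 and 24.5 CPM in KIN, a log2FC of 0.36 (SE 0.38, adjusted p = 0.968). The genotypes overlapped in both genes.
*Mapt* was at 16.3, 20.5 and 6.74 CPM in WT and at 9.83, 8.92 and 14.8 CPM in KIN, a log2FC of −0.58 (SE 0.39, edgeR adjusted p = 0.968). *Ina* was at 4.34, 4.1 and 0 CPM in WT and at 3.28, 2.43 and 3.87 CPM in KIN, a log2FC of −0.06 (SE 0.82, adjusted p = 0.994), whose sign turned under other settings. Neither gene separated the genotypes.
*Nefm* was at 4.34, 6.15 and 1.35 CPM in WT and at 1.31, 4.87 and 1.29 CPM in KIN, a log2FC of −0.93 (SE 0.83, edgeR adjusted p = 0.968). *Map1a* was at 3.25, 22.6 and 0 CPM in WT and at 5.24, 5.68 and 8.38 CPM in KIN, and its log2FC of −0.67 (SE 0.62, adjusted p = 0.968) became 1.59 without WT replicate 2.
*Kif5a* was at 5.42, 148.0 and 12.1 CPM in WT, from 5, 144 and 9 counts, and at 3.28, 11.4 and 9.67 CPM in KIN. The log2FC of −2.96 (SE 0.64, edgeR adjusted p = 0.0665) was −0.33 (adjusted p = 0.956) without WT replicate 2, and was called without WT replicate 1 (−3.50, adjusted p = 0.000572) or WT replicate 3 (−3.39, adjusted p = 0.014). With all 18 libraries in the fit it was called too (−2.84, adjusted p = 1.74e-06), but that fit gave −0.06 (adjusted p = 0.99) without WT replicate 2, a setting added after seeing the data. Over its alternatives the adjusted p ran from 7.58e-14 to 1.0.
The value of *Kif5a* in neurons was thus set by WT replicate 2, the library with the high oligodendrocyte and astrocyte markers.

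The other 3 members were too low to be tested in the fit of the neuronal libraries. With all 18 libraries in 1 fit *Nefh* was tested and called, but not when that fit left out WT replicate 2. *Nefh* was at 1.08, 33.9 and 0 CPM in WT, from 1, 33 and 0 counts, and at 0, 0 and 0.645 CPM in KIN; the single high library was again WT replicate 2. The ratio of its pooled levels was 55.5 (exact 95% interval 9.32 to 2260.0), and without that library 1 count in WT stood against 1 in KIN, so that no ratio is given. *Nefl* had 2, 2 and 1 counts in WT and 1, 0 and 0 in KIN, a ratio of pooled levels of 8.17 (exact 95% interval 0.914 to 386.0). *Gap43* had 7 counts in WT and 3 in KIN, a ratio of 3.81 (exact 95% interval 0.87 to 22.8). Every KIN library was below every WT library for *Nefl* (0 to 0.655 CPM against 1.35 to 2.17 CPM) and for *Gap43* (0 to 1.29 CPM against 1.35 to 4.34 CPM). Both intervals include 1, so that a difference in the pooled levels was not detectable at this depth.

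**Figure D2:**
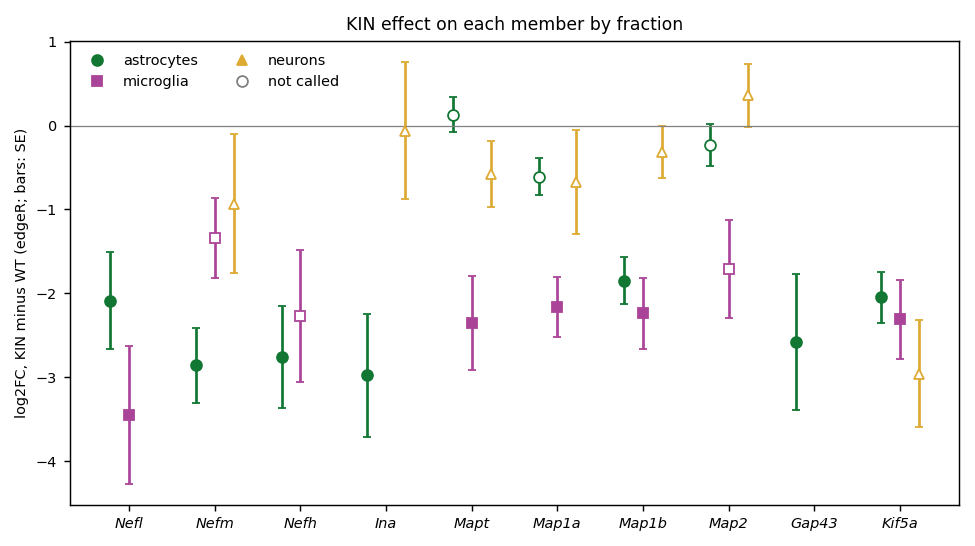
The log2FC of KIN minus WT on the vertical axis for each gene on the horizontal axis, by fraction, from the edgeR fits of each fraction; bars are standard errors, filled points were called and open points were not. Ina in microglia is left out because all KIN libraries were at 0. In astrocytes Mapt (0.13) and Map2 (−0.23) lie near 0 while the filled points of Ina (−2.98) and Nefm (−2.86) lie lowest, and no neuronal point is filled.

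Whether the KIN effects differed between fractions was tested in a fit of all 18 libraries. *Mapt* was the only member called, with a KIN effect lower in microglia than in astrocytes by 2.48 on the log2 scale (difference −2.48, SE 0.61, edgeR adjusted p = 0.0173), against 0.819% of all genes called in either direction. An unadjusted p of at most 0.05 was reached by 3 members in the lower and 1 in the higher direction, against 5.11% and 6.11% of all genes. Over its alternatives the adjusted p of *Mapt* ran from 0.00317 to 0.141. Its call was lost without microglia KIN replicate 1 (−2.19, adjusted p = 0.101), KIN replicate 3 (−2.66, adjusted p = 0.0588) or WT replicate 1 (−2.15, adjusted p = 0.141). *Map1a* had a difference of −1.56 (SE 0.47, edgeR adjusted p = 0.0876) in the same contrast and *Map1b* had differences of 1.71 (SE 0.47, adjusted p = 0.0565) for neurons minus astrocytes and 2.1 (SE 0.52, adjusted p = 0.0602) for neurons minus microglia. In these 2 contrasts 0 of the 10 members were called, against 0.708% and 0.14% of all genes, while 3 and 5 members had an unadjusted p of at most 0.05, all higher in neurons, against 9.2% and 7.17% of all genes with such a p in that direction and 3.12% and 2.46% in the other. The median difference of the members was −0.88, 0.39 and 1.15 in the 3 contrasts, beside −0.049, 0.281 and 0.29 for all genes. Without neurons WT replicate 2, *Map1a* (4.01, edgeR adjusted p = 0.0141) and *Map1b* (2.22, adjusted p = 0.0495) were called for neurons minus microglia, *Map1a* joined *Mapt* for microglia minus astrocytes (−1.57, adjusted p = 0.04), and 0 members were called for neurons minus astrocytes. The median differences were then −0.89, 1.68 and 2.17 in the order above, beside −0.056, 0.451 and 0.438 for all genes. Over its alternatives the adjusted p of *Map1a* for neurons minus microglia ran from 0.0141 to 0.744 and that of *Map1b* from 0.000743 to 0.5. For neurons minus astrocytes that of *Map1b* ran from 0.00603 to 0.395, and *Map1b* was called in 4 of 18 fits with 1 library left out.
With the replicate number as a block, 2, 1 and 1 members were called in the 3 contrasts, *Map1a* with *Mapt* in the first and *Map1b* in the others. *Map2* was called for neurons minus microglia without microglia WT replicate 2 (2.5, adjusted p = 0.047; range over the alternatives 0.047 to 0.702). For *Nefl*, *Nefm*, *Nefh*, *Ina*, *Gap43* and *Kif5a* a difference of the KIN effect between fractions was tested and not called in any of the fits run.

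The next comparison set the fractions against each other over both genotypes. The neuronal fraction was not where most of these mRNAs were highest. *Mapt* and *Map1a* were highest in astrocytes and lower in neurons, *Kif5a* and *Ina* were called higher in neurons than in astrocytes with all libraries but not without neurons WT replicate 2, and *Map2* covered the same range in both. *Map1b* was not called over both genotypes, but was higher in neurons than in astrocytes in KIN. *Mapt*, *Map1b*, *Map2* and *Kif5a* were called lower in microglia than in both other fractions.

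For *Mapt* the 6 libraries of each fraction ran from 34.3 through a median of 35.9 to 42.6 CPM in astrocytes, from 6.74 through 12.3 to 20.5 CPM in neurons and from 0.397 through 1.53 to 5.97 CPM in microglia. The 3 ranges did not overlap. Oligodendrocyte markers summed to 475 to 867 CPM in astrocytes, and in neurons to 277 CPM in WT replicate 2 and 28.2 to 49.8 CPM in the other libraries. Their part in the order of *Mapt* was not tested. Neurons differed from astrocytes by a log2FC of −1.52 (SE 0.22, edgeR adjusted p = 2.49e-09) and from microglia by 2.67 (SE 0.33, adjusted p = 8.04e-12), and astrocytes from microglia by 4.19 (SE 0.26, adjusted p = 2.32e-30).
*Map1a* ran from 33.0 through 37.8 to 71.7 CPM in astrocytes, from 0 through 5.46 to 22.6 CPM in neurons and from 3.18 through 6.53 to 26.8 CPM in microglia. Astrocytes lay above all other libraries, and neurons and microglia overlapped (log2FC −0.27). Neurons differed from astrocytes by a log2FC of −2.51 (SE 0.27, edgeR adjusted p = 2.57e-14), and without neurons WT replicate 2 by −3.69; without it the level in neurons was also called lower than in microglia (−1.44).
*Map2* ran from 10.7 through 14.3 to 21.2 CPM in astrocytes, from 9.23 through 13.7 to 24.5 CPM in neurons and from 0.702 through 1.84 to 7.17 CPM in microglia. Astrocytes and neurons covered the same range, and both lay above every microglial library. The log2FC against microglia was 2.73 (SE 0.28, edgeR adjusted p = 1.23e-15) for astrocytes and 2.67 (SE 0.33, adjusted p = 7.67e-12) for neurons.
*Map1b* ran from 16.2 through 20.8 to 23.9 CPM in neurons, from 8.44 through 11.9 to 45.6 CPM in astrocytes and from 3.16 through 3.97 to 25.1 CPM in microglia. Its spread was small in neurons and wide in the glial fractions. Neurons minus astrocytes gave a log2FC of 0.32 (edgeR adjusted p = 0.313) over both genotypes, but the KIN neurons (17.0 to 22.6 CPM) all lay above the KIN astrocytes (8.44 to 8.93 CPM). In KIN alone the value was 1.12 (adjusted p = 0.000669) and in WT alone −0.48, without a call, and the adjusted p ran over the alternatives from 0.000669 to 0.669. The log2FC against microglia was 1.39 (SE 0.26, edgeR adjusted p = 6.52e-06) for neurons and 1.08 (SE 0.25, adjusted p = 0.000154) for astrocytes, the latter lost without astrocytes WT replicate 1 or 3 or microglia WT replicate 2, with values from 0.83 to 1.26 over all libraries left out.

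*Kif5a* ran from 3.28 through 10.5 to 148.0 CPM in neurons, from 2.3 through 12.1 to 18.7 CPM in astrocytes and from 0.702 through 3.03 to 6.81 CPM in microglia. The medians of neurons and astrocytes were close, and the highest neuronal library was WT replicate 2. The log2FC of neurons minus astrocytes was 1.28 (SE 0.32, edgeR adjusted p = 0.000765) with that library and −0.10 without it. Against microglia the neurons were higher by 3.05 (SE 0.4, adjusted p = 9.81e-11), and by 1.68 without it, and astrocytes were higher by 1.77 (SE 0.4, adjusted p = 0.000112).
*Ina* ran from 0 through 3.57 to 4.34 CPM in neurons, from 0 through 1.57 to 4.08 CPM in astrocytes and from 0 through 0 to 2.98 CPM in microglia. The neuronal call over microglia (log2FC 3.3, SE 0.78, edgeR adjusted p = 0.000323) held with each library left out. That over astrocytes (1.44, SE 0.58, adjusted p = 0.0425) was lost in 8 of 18 such fits. These left out astrocytes KIN 2 or 3 or WT 1 or 2, or neurons KIN 1 or 3 or WT 1 or 2. Over the 18 fits its value ran from 1.18 to 2.87, the highest without astrocytes KIN replicate 1, and it was −0.03 in the WT libraries alone.
*Nefl*, *Nefm*, *Nefh* and *Gap43* were not called in any contrast between fractions with all libraries in the fit, and their order was not settled. In the WT libraries alone *Nefh* was called higher in neurons than in astrocytes (edgeR adjusted p = 0.0171; range over the alternatives 0.0171 to 1.0) and than in microglia (adjusted p = 0.000887; 0.000887 to 1.0), where neurons WT replicate 2 is 1 of 3 neuronal libraries. Without astrocytes WT replicate 2 *Nefl* was called lower in neurons than in astrocytes (−1.76, adjusted p = 0.0465; 0.0465 to 0.326) and higher in astrocytes than in microglia (1.37, adjusted p = 0.0402; 0.0402 to 0.618). In astrocytes the mean level of *Nefm* was 5.71 ± 6.2 CPM (SD, n = 6) and that of *Nefl* 2.64 ± 2.78 CPM. Microglia had means of 4.43 ± 3.18 and 1.62 ± 1.78 CPM for this pair, and neurons 3.22 ± 2.17 and 1.04 ± 0.97 CPM, so that the SD was of the size of the mean in most of them.
Of the 10 members, 5 were called higher and 0 lower in astrocytes than in microglia, against 18.2% and 14.9% of all genes. In neurons 2 were called higher and 2 lower than in astrocytes, against 11.5% and 19.3%, and 5 were called higher and 0 lower than in microglia, against 10.2% and 17.3%. Without neurons WT replicate 2 these were 0 higher and 2 lower than in astrocytes, and 5 higher and 1 lower than in microglia. Of 13536 tested genes, 1364 were then called higher and 2599 lower than in astrocytes, and 1245 higher and 2296 lower than in microglia.

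The counts were also followed by transcript, first for *Mapt*. In astrocytes *Mapt-204*, which codes for a tau without the small exons near the start, held 60.2% of the *Mapt* counts, *Mapt-205* held 12.8% and *Mapt-210*, which has no defined coding sequence, 7.43%. In microglia *Mapt-204* held 81.4% (35 of 43 counts) and in neurons 64.0% (57 of 89 counts). *Mapt-204* had 57, 63 and 60 counts in WT astrocytes and 99, 39 and 71 in KIN, a log2FC of 0.30 (SE 0.25, edgeR adjusted p = 0.503). *Mapt-205* had 13, 15 and 15 counts in WT and 17, 13 and 10 in KIN, a log2FC of 0.02 (SE 0.36, adjusted p = 0.987). Neither of the main transcripts separated the genotypes in astrocytes. The ratio of pooled WT to KIN levels of *Mapt-204* was 0.761 (exact 95% interval 0.62 to 0.933), which covers counting error only and not the spread between libraries.
In microglia *Mapt-204* had 16, 4 and 8 counts in WT and 1, 3 and 3 in KIN, and all *Mapt* counts of the KIN libraries were in this transcript. Its log2FC was −2.07 (SE 0.57, edgeR adjusted p = 0.0665), and in neurons it was −0.24 (SE 0.45, adjusted p = 0.984).
The transcripts *Mapt-202* and *Mapt-203* contain the large middle exon of 711 or 759 bases, which marks the long form known as big tau. Together they had 40 of 325 *Mapt* counts in WT astrocytes (12.3%, Wilson 95% interval 9.17 to 16.3%) and 19 of 321 in KIN (5.92%, interval 3.82 to 9.06%). In libraries these were 14, 11 and 15 counts in WT and 6, 6 and 7 in KIN. The pair was put together after the values were seen, and no test was made; the ratio of pooled levels was 1.86 with an exact 95% interval of 1.05 to 3.4 for counting error. Alone, neither passed the test (*Mapt-202* −1.07, edgeR adjusted p = 0.264; *Mapt-203* −0.78, adjusted p = 0.448). Reads from a part that several transcripts share could be divided among them, so that a count by transcript is less certain than the sum over the gene.

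**Figure D3:**
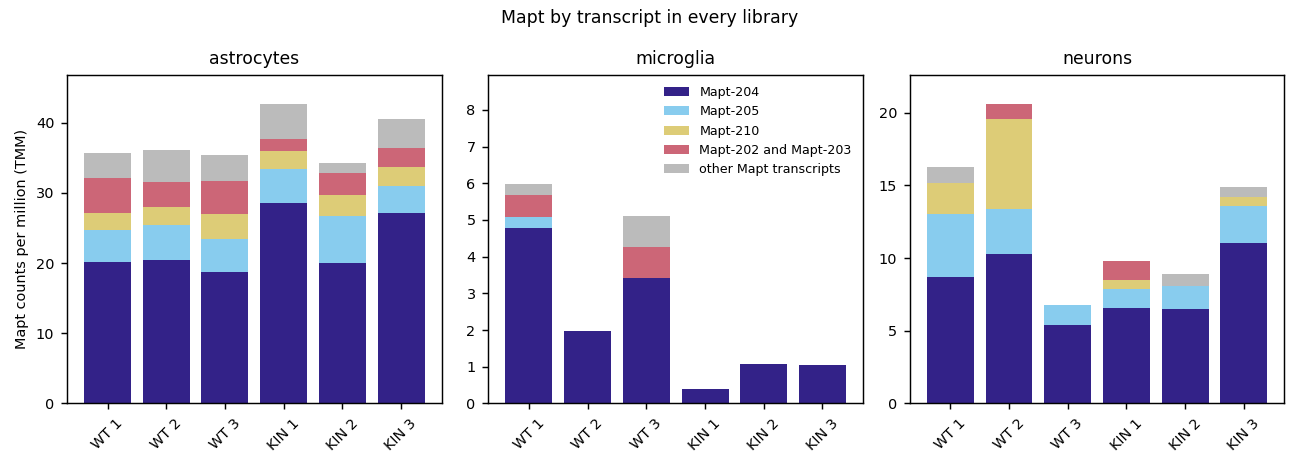
Mapt in every library by transcript, as stacked bars of CPM on the vertical axis, for WT and KIN replicates 1 to 3 on the horizontal axis of each fraction, with different vertical scales. Mapt-204 makes up the largest part of most bars, the bars of astrocytes have similar heights in both genotypes (34.3 to 42.6 CPM), and the KIN bars of microglia are low and hold Mapt-204 alone.

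At the level of transcripts, 10 of the 24 tested member transcripts were called in astrocytes, all lower. This stood against 8.37% of all transcripts called in either direction (391 of 15548 higher and 911 lower). They were *Nefl-201*, *Nefm-201*, *Nefm-202*, *Nefh-201*, *Ina-201*, *Map1b-201*, *Map2-225*, *Kif5a-201*, *Kif5a-202* and the main transcript of *Gap43*. Only *Map2-225* belonged to a gene that was not called as a sum. In microglia 5 of 10 were called, all lower, against 0.92% (71 of 14126 higher and 59 lower): *Nefl-201*, *Map1a-201*, *Map1a-202*, *Map1b-201* and *Kif5a-201*. In neurons 0 of 8 were called, against 0.0181%.
*Map2-225* had 10, 4 and 13 counts in WT astrocytes and 2, 1 and 1 in KIN, without overlap, and a log2FC of −2.54 (SE 0.66, edgeR adjusted p = 0.00498). *Map2* makes a long dendritic form and a short form that lacks the middle of the protein. The 2 transcripts with a coding sequence of 5484 to 5967 bases, *Map2-225* among them, had 50 of 150 *Map2* counts in WT astrocytes (33.3%, Wilson 95% interval 26.3 to 41.2%) and 14 of 115 in KIN (12.2%, interval 7.39 to 19.4%). Their levels were 5.65, 3.9 and 6.9 CPM in WT and 1.15, 1.53 and 2.68 CPM in KIN.
Every KIN library was below every WT library for the long form. The 6 transcripts with a coding sequence of 1398 to 1494 bases had 68 and 76 counts, at 10.2, 7.8 and 4.7 CPM in WT and 9.51, 6.65 and 11.5 CPM in KIN. The ratio of pooled WT to KIN levels was 3.15 (exact 95% interval 1.72 to 6.18) for the long and 0.79 (interval 0.561 to 1.11) for the short form. In microglia the long form had 12, 1 and 2 counts in WT and 0 in all KIN libraries, at least 5.29-fold lower in KIN over the group. This bound rests on WT replicate 1, without which 3 counts are left in WT and no bound can be given. In neurons the long form had 7 counts in WT and 10 in KIN, a ratio of 1.14 (interval 0.369 to 3.33). These sets, too, were formed after the values were seen, and carry no test.
*Map1a* counts were split between *Map1a-201* and *Map1a-202*, with 51.0% and 46.3% in astrocytes. In microglia *Map1a-202* fell from 44, 6 and 35 counts in WT to 3, 4 and 2 in KIN (log2FC −3.3, SE 0.5, edgeR adjusted p = 7.72e-05), and *Map1a-201* from 35, 9 and 28 to 5, 8 and 14 (−1.54, SE 0.39, adjusted p = 0.0421). The call of *Map1a-202* held in all 6 fits with 1 library left out, that of *Map1a-201* only in the fit without WT replicate 2, and a difference between them was not tested. In astrocytes *Map1a-202* passed the p threshold (−0.89, adjusted p = 0.0143) but was under the fold threshold.

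The other genes of the cytoskeleton were counted by list. Of all tested genes, the shares called higher and lower were 2.43% and 6.42% in astrocytes, 0.739% and 0.785% in microglia and 0.0% and 0.0739% in neurons. Of 6 tested other intermediate filament genes in astrocytes 1 was called, *Vim* (vimentin, a filament of glia and precursors), which rose from 2.86 ± 0.916 to 11.7 ± 3.78 CPM (SD, n = 3; log2FC 1.97, SE 0.34, edgeR adjusted p = 4.33e-05). In microglia and neurons 0 of 4 and 0 of 2 were called. The list did not fall with the neurofilaments; its median log2FC was 0.38 in astrocytes.
Among other microtubule-associated and microtubule-end proteins, 35 were tested in astrocytes, and 1 rose and 2 fell, 2.86% and 5.71% of the list and so close to the shares of all genes. *Stmn4* rose by 1.05, a call lost without KIN replicate 3, while *Crmp1* (−1.64) and *Stmn2* (−1.47), both genes of growing axons, fell, each with its call lost in 4 of 6 fits with 1 library left out. In microglia 1 of 29 fell, *Dclk1* (−2.84, edgeR adjusted p = 0.04, lost in 5 of 6 such fits), and in neurons 0 of 27 were called. The medians of this list were −0.15, −0.24 and 0.14 in astrocytes, microglia and neurons.
Of 22 other motor genes in astrocytes 3 fell, the kinesins *Kif21b* (−1.37) and *Kif5c* (−1.23, a paralogue of *Kif5a*) and the light chain *Klc2* (−1.15), and *Kif3a* rose (1.07), 13.6% and 4.55% of the list. In microglia 3 of 22 (13.6%) fell, *Kif3c* (−1.88), *Klc2* (−1.81) and *Kif1a* (−1.47). With 1 library left out, the calls were lost in 1 of 6 fits for *Kif21b*, in 2 for *Kif5c* and for *Kif3a*, in 4 for *Klc2* in astrocytes, and in 5 for each of the 3 microglial genes, all but the fit without WT replicate 2. In neurons 1 of 17 fell, *Kif1a*, which carries synaptic vesicle precursors (log2FC −2.61, edgeR adjusted p = 0.049), but its value was −0.70 without WT replicate 2. The list medians were −0.18, −0.29 and −0.36.
Of 8 partners of *Gap43* in growth cones or calmodulin binding, 3 fell in astrocytes and 1 rose. *Basp1* fell by 1.99, *Nrgn* by 1.97 and *Pcp4* from 19 counts to 1, and *Marcksl1* rose by 2.05. *Nrgn*, a postsynaptic calmodulin-binding protein, also fell in microglia, by 3.45 (edgeR adjusted p = 0.00035), the only 1 of 7 called there, and 0 of 6 were called in neurons. *Basp1*, *Nrgn* and *Marcksl1* kept their calls with each library left out, while *Pcp4* lost its call in 2 of the 4 such fits that could test it.
Of 11 kinases and phosphatases that act on tau and neurofilaments, 2 fell in astrocytes, *Cdk5r1* (−2.59, edgeR adjusted p = 0.000725) and *Cdk5r2* (−2.68, adjusted p = 0.00341, lost without KIN replicate 1), which encode the neuronal activators of CDK5. In microglia and neurons 0 of 9 and 0 of 9 were called.

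Summed levels of neuron markers moved with the members in the glial fractions. In astrocytes 13 of 18 tested neuron markers were called lower and 0 higher (median log2FC −1.75), with *Slc17a7* at −2.94, *Camk2b* at −2.81 and *Snap25* at −2.54. Not all of them fell. *Tubb3* was at 5.53 to 10.0 CPM in WT and at 10.1 to 21.1 CPM in KIN, with every KIN library above every WT library. The summed level of the 19 listed markers was 311, 170 and 276 CPM in WT replicates 1 to 3 and 120 to 130 CPM in KIN, and that of the 10 members 229, 125 and 188 CPM and 102 to 111 CPM. WT replicate 2 was the lowest WT library in both sums. In microglia 6 of 18 neuron markers fell (median −1.79), from 158, 80.4 and 157 CPM to 66.4 to 77.5 CPM, and the members from 83.6, 29.8 and 80.9 CPM to 12.3 to 17.9 CPM. In neurons 0 of 14 were called, and the sums overlapped, 208 to 253 CPM in WT and 245 to 278 CPM in KIN. Only *Slc17a6* among the neuron markers was at 0 in every library of a group, in KIN astrocytes and in WT neurons.
Oligodendrocyte markers moved the other way in astrocytes, where 3 of 11 rose, *Mog* (1.27), *Cnp* (1.12) and *Sox10* (1.07, lost without WT replicate 3), and their sum was 475, 741 and 489 CPM in WT and 845 to 867 CPM in KIN. In microglia they summed to 33.2 to 36.4 CPM in WT and 19.9 to 22.6 CPM in KIN, with 0 of 5 called. The levels of *Mapt*, also expressed by oligodendrocytes, were thus read in a fraction where the sum of neuron markers was lower and that of oligodendrocyte markers higher in KIN. In neurons 1 of 5 was called lower, *Mbp* (−3.65, edgeR adjusted p = 0.049), at 0.07 without WT replicate 2. Astrocyte markers fell in 4 of 10 in astrocytes and in 3 of 6 in microglia, microglia markers were not called in any fraction, and 1 of 5 endothelial and pericyte markers, *Cldn5* (−2.12, lost without KIN replicate 1 or 3), fell in microglia. The part of the marker levels in the changes of the members was not tested.

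**Figure D4:**
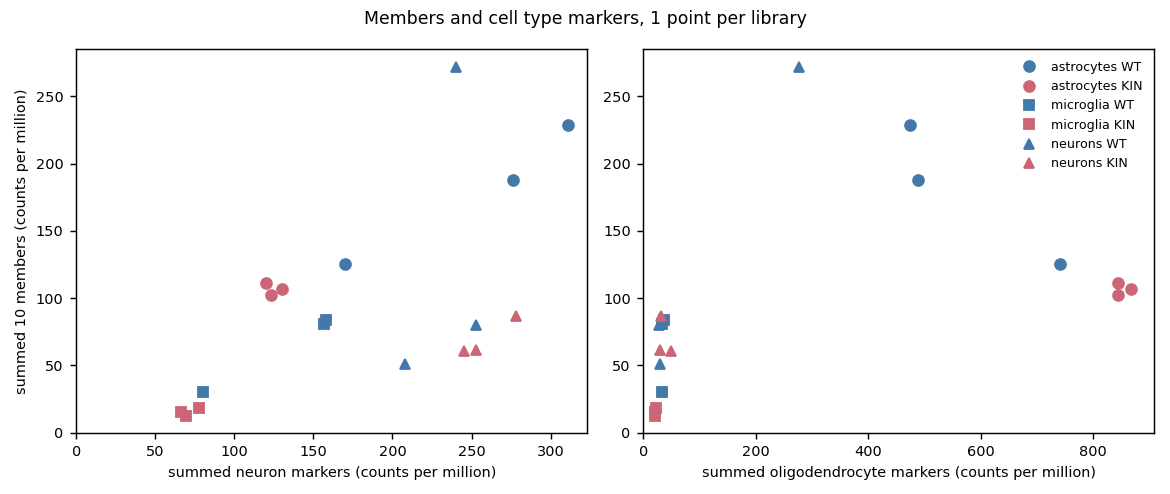
Summed level of the 10 genes on the vertical axis against the summed level of neuron markers (left) and oligodendrocyte markers (right) on the horizontal axes, all in CPM, with 1 point per library. In the glial fractions the KIN points lie at lower sums of both members and neuron markers (102 to 111 and 120 to 130 CPM in astrocytes), and neurons WT replicate 2 stands apart at 272 CPM of members and 277 CPM of oligodendrocyte markers.

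Genes with the pattern most like each member were named by Pearson's r of log2 CPM over the 18 libraries. This is a description, because libraries of a fraction or genotype share their source, and no p is given. The genes most like *Mapt* were *Thra* (r = 0.955), *Fez1* and *Dnaaf9* (0.947 each), and those most like *Map2* were *Nrxn2* (0.931), *Ncam1* (0.928) and *Clip3* (0.924). For *Map1a* they were *Clstn1* (0.934), *Usp20* (0.93) and *Tom1l2* (0.927), and for *Map1b* *Atp1b1* (0.918), *Nova2* (0.898) and *Srrm3* (0.88). For *Nefm* they were *Kcnk9* (0.862), *Vxn* (0.849) and *Hpca* (0.846), and for *Kif5a*, whose values are dominated by neurons WT replicate 2, *Elp6* (0.872), *Akap5* (0.863) and *Tatdn1* (0.854). Without that library the genes most like *Kif5a* were *Foxred2* (0.86), *Cit* (0.854) and *Nlgn2* (0.85), and *Elp6* was at 0.731. *Nefl*, *Nefh*, *Ina* and *Gap43* had a mean of under 10 counts and were left out. Between the members, r was 0.85 for *Mapt* and *Map2*, 0.86 for *Map1b* and *Ina* and 0.72 for *Nefl* and *Nefm*. *Nefh* was closest to *Kif5a* (0.75), the other gene with its maximum in neurons WT replicate 2; without that library this r was 0.5, and *Nefh* was closest to *Nefl* (0.83).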

How the data were processed

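RNA of 18 libraries, 3 for each of 3 brain fractions and 2 genotypes, was sequenced as panRNA-seq, a 3′-end method with depletion of ribosomal RNA, added poly(A) tails and unique molecular identifiers. The deposited values are whole-number counts per transcript, not normalized, which the authors made by removing duplicates, trimming, mapping in steps and counting without regard to strand. The submitters' processing notes name cutadapt 4.6, FastQC 0.11.9, MultiQC 1.23, Bowtie2 2.4.4, HTSeq 2.0.2, DESeq2 and the build mm39. Another 36 per-sample columns of normalized values were not used, nor were the authors' own columns of fold changes and p-values. Groups and replicate numbers came from the sample labels; the methods say that the 3 fractions were isolated in sequence from one brain, but the sources used here do not say whether equal numbers are the same mouse.

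Counts were summed by gene symbol over 116873 transcripts (35823 symbols; 137 entries without a symbol stayed under their own identifier). Genes with at least 5 counts in at least 2 libraries of a fit were tested with the quasi-likelihood test of edgeR 4.0.16 (R 4.3.3, limma 3.58.1, TMM scaling, Benjamini-Hochberg adjustment over all genes of the fit, prior count 0.125). A call needed an adjusted p no higher than 0.05 together with a log2FC of 1 or more in size. KIN was compared with WT in each fraction on its 6 libraries, and fractions and differences of KIN effects were tested on all 18. CPM were computed from TMM-scaled library sizes. Likeness used log2 CPM with a prior count of 2. Exact 95% intervals of ratios, Wilson intervals of shares and the floor of 3 counts cover counting error only. Scripts were tested on simulated data.

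The 10 genes and all lists were chosen with earlier results of these data known. All 10 were named in every comparison; from each other list, the called genes were named, up to 3 with the largest log2FC in each direction, and for likeness the 3 genes with the highest r for members with a mean of at least 10 counts. Sequences and positions came from the GRCm39 genome and its annotation, the same assembly as mm39. The alternatives were DESeq2 1.42.0, its size factors with edgeR, TMM without the 10 most abundant transcripts, no filter, a filter at a mean of 10 counts, no fold threshold, the most abundant transcript in place of sums, all 18 libraries or only those of 2 fractions or of 1 genotype in a fit, a replicate block, and each library left out. DESeq2 without independent filtering, *Nefm-201* alone, and the joint fit and the likeness without neurons WT replicate 2 were added after seeing the data.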

Additional observations from a re-analysis of the deposited data

Results flagged for a closer look

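The KIN effect on *Mapt* differed between microglia and astrocytes in a test of the difference itself. The difference was −2.48 on the log2 scale (microglia minus astrocytes, SE 0.61, edgeR adjusted p = 0.0173), from a log2FC of 0.13 in astrocytes and −2.35 in microglia. The call of the difference was lost in 3 of 18 fits with 1 library left out, with adjusted p values of up to 0.141, and that of *Mapt* in microglia without each KIN library. The microglial value rests on 36 counts in WT and 7 in KIN. Oligodendrocyte markers summed to 475 to 741 CPM in WT and 845 to 867 CPM in KIN astrocytes, and to 33.2 to 36.4 CPM in WT and 19.9 to 22.6 CPM in KIN microglia. Neuron markers summed to 170 to 311 CPM in WT and 120 to 130 CPM in KIN astrocytes, and to 80.4 to 158 CPM in WT and 66.4 to 77.5 CPM in KIN microglia, and the part of these levels in the difference was not tested.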

How the results depend on the processing

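Of 2400 values of members or transcripts compared with an alternative, 2180 kept their direction and their side of the threshold, 85 lost and 49 gained a call and 86 changed sign. The low counts limit these results: a filter at a mean of 10 counts left 6, 3 and 4 members to test in astrocytes, microglia and neurons. Where no cause is named, the cause was not tested. The members called numbered 7 in astrocytes, but 4 with DESeq2, with or without its independent filtering, and 3 with the filter at a mean of 10. They numbered 5 in microglia, but 2 with DESeq2 without independent filtering and 2 with the filter at a mean of 10; with independent filtering DESeq2 gave no adjusted p for any of the 9. In neurons they numbered 0, but 2 (*Kif5a* and *Nefh*) with all 18 libraries in 1 fit (0 when that fit left out neurons WT replicate 2) and 2 with no filter. For neurons against astrocytes they numbered 4, but 2 with either DESeq2 setting. For the differences of KIN effects, no filter gave 2 (microglia minus astrocytes), 1 (neurons minus astrocytes) and 1 (neurons minus microglia) in place of 1, 0 and 0, and the fit of only 12 libraries gave 1 for neurons minus astrocytes. Member transcripts called numbered 10 in astrocytes, but 4 with either DESeq2 setting and 3 with the filter at a mean of 10; 5 in microglia, but 1 with DESeq2 without independent filtering and 2 with that filter; and 0 in neurons, but 3 with all 18 libraries and 3 with no filter. With each library left out, the members called ran from 4 to 7 in astrocytes, 1 to 8 in microglia, 0 to 1 in neurons, 2 to 4 for neurons against astrocytes, 5 to 6 for neurons against microglia, 4 to 6 for astrocytes against microglia, and 0 to 2, 0 to 1 and 0 to 2 for the differences of microglia minus astrocytes, neurons minus astrocytes and neurons minus microglia; transcripts ran from 6 to 12, 1 to 8 and 0 to 1.

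Pairing by replicate number was not shown. Deviations of same-numbered KIN and WT libraries correlated at −0.063 to 0.054, and those of WT astrocytes and microglia at 0.064, 0.209 and 0.098 for replicates 1, 2 and 3, where replicate 2 paired with other numbers gave −0.14 to −0.107. Same-numbered pairs of the other fractions of a genotype gave −0.037 to 0.027. With the replicate block the members called were 7, 5 and 0 in the KIN comparisons, 4, 5 and 5 for neurons against astrocytes, neurons against microglia and astrocytes against microglia, 2, 1 and 1 for the differences of KIN effects, and 10, 4 and 0 transcripts.

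Signs turned for the following values, among them *Ina* for neurons minus astrocytes, which had been called. *Ina* in neurons (−0.06) was 0.11 with all 18 libraries and with no filter and 0.04 with the block, and 0.46 with all libraries but neurons WT replicate 2, where *Map1a* in neurons (−0.67) was 1.85. For neurons minus astrocytes, *Ina* (1.44) was −0.03 and *Map1b* (0.32) −0.48 in WT alone, *Map2* (−0.06) 0.28 in KIN alone and 0.1 with the filter at a mean of 10, *Nefh* (0.13) −0.01 with either DESeq2 setting and *Nefm* (−0.26) 0.71 in KIN alone. For neurons minus microglia *Map1a* (−0.27) was 0.51 in KIN alone; for astrocytes minus microglia *Gap43* (−0.18) was 0.49 and *Nefm* (−0.14) 0.58 in WT alone. The difference of *Map1a* for neurons minus astrocytes (0.08) was −0.02 with either DESeq2 setting, −0.07 with its size factors and −0.03 with the block. Among transcripts, *Map2-207* in astrocytes (0.00) was −0.07 with either DESeq2 setting, −0.02 with its size factors, −0.00 with no filter and −0.12 with the block, *Mapt-205* in astrocytes (0.02) was −0.00 with the size factors and −0.04 with the filter at a mean of 10, and in neurons *Map1b-201* (−0.27) was 0.11 and 0.14, *Ina-201* (−0.09) 0.27 and 0.3, and *Mapt-204* (−0.24) 0.13 and 0.17 with all 18 libraries and with no filter; *Ina-201* was 0.0 with the block.

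With each library left out, signs turned within these ranges: in neurons *Ina* −0.51 to 0.31 and *Map1a* −1.13 to 1.59; for neurons minus astrocytes *Kif5a* −0.1 to 1.55, *Map2* −0.21 to 0.07 and *Nefh* −2.01 to 0.4; for neurons minus microglia *Gap43* −0.12 to 0.77, *Nefh* −1.47 to 1.29 and *Nefm* −0.8 to 0.31; for astrocytes minus microglia *Gap43* −0.63 to 0.3 and *Nefm* −0.42 to 0.56. For the difference of KIN effects of microglia minus astrocytes these were *Ina* −2.61 to 0.81, *Kif5a* −0.59 to 0.17 and *Nefh* −0.77 to 1.03; for neurons minus astrocytes *Gap43* −0.14 to 1.5, *Kif5a* −1.35 to 1.96, *Map1a* −0.4 to 2.45 and *Nefh* −5.11 to 1.56; for neurons minus microglia *Gap43* −1.56 to 0.24, *Kif5a* −1.07 to 2.25, *Nefh* −5.58 to 1.1, *Nefl* −1.71 to 1.2 and *Nefm* −0.27 to 1.94. Transcripts were *Mapt-210* −0.22 to 0.04, *Map2-207* −0.63 to 0.75, *Mapt-205* −0.14 to 0.2 and another *Map2* transcript −0.41 to 0.41 in astrocytes and *Ina-201* −0.54 to 0.24 in neurons.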
